A study of Mus musculus with 12 samples.

Results

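The lysosomal membrane holds glycoproteins that line it, channels and transporters that move ions, amino acids, nucleosides and lipids across it, and receptors that bring proteins to it. Of 39 such genes listed by name, with the proton pump (V-ATPase) left out, all 39 were found in the data. A gene was kept when its value was at least 10 normalized read counts in at least 3 of 12 libraries, which 36 of the 39 met, out of 13111 genes that met the same filter among 23479 in the table. The libraries came from cultured cells of 1 B cell lymphoma of a C57BL/6 mouse carrying the transgenes Eµ-Myc and Eµ-rtTA, in which the immunoglobulin heavy chain enhancer (Eµ) drives expression in B lineage cells. All 4 groups carried both transgenes and a puromycin resistance retrovirus and grew with IL-7, and each had 3 libraries.

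The first group carried TFEB-ERT2 and received 4-hydroxytamoxifen (4-OHT) for 4 days. TFEB-ERT2 is TFEB with an alanine in place of a serine that mTORC1 phosphorylates, fused to the altered hormone-binding part of a human estrogen receptor, ERT2, which 4-OHT activates. The second group was the same line in vehicle, the third was the empty-vector line in 4-OHT, and the fourth was the empty-vector line in vehicle. The 4-OHT concentration is given as 250 nM in the treatment protocol and as 250 ng/mL in the design text, so its unit is in doubt. Nothing in the labels tells whether the triplicates were separate cultures, so the p-values cover only the spread among these 12 samples, which may be technical.

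TFEB is a basic helix-loop-helix transcription factor that switches on genes of lysosomes and autophagy. When mTORC1 on the lysosomal surface is active it phosphorylates TFEB and keeps it in the cytoplasm; TFEB in the nucleus binds an E-box-containing element (the CLEAR element) near the start of many lysosomal genes. The proteins of the lysosomal membrane do several jobs. LAMP proteins form the protective inner coat, chloride-proton exchangers and cation channels set the ionic content, solute carriers and ABC proteins export the products of digestion, and mannose 6-phosphate receptors carry newly made hydrolases in from the Golgi.

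The libraries held 11849029 to 22109283 reads, and 11390 to 19250 genes had a read. A value of 0 allows up to 3 reads, equal to 2.21 to 4.15 normalized counts across the libraries. Tfeb, which the table gives as 1 row for the mouse gene, had 702, 581 and 711 normalized counts in TFEB-ERT2 cells in 4-OHT, 1597, 1955 and 1476 in TFEB-ERT2 cells in vehicle, 231, 195 and 238 in vector cells in 4-OHT, and 252, 255 and 223 in vector cells in vehicle. Every TFEB-ERT2 library was thus above every vector library, and within the TFEB-ERT2 line the 4-OHT libraries were the lower ones. The B cell receptor component Cd79a had 8469 to 9223 normalized counts in TFEB-ERT2 cells in 4-OHT and 6833 to 8360 in TFEB-ERT2 cells in vehicle. Of 11 B lineage markers 10 were tested, and 2 rose and 8 fell in TFEB-ERT2 cells with 4-OHT. The 2 that rose were Cd79a (1.18-fold, limma adjusted p = 0.0389) and Blnk (1.43-fold, 2.65e-05). The largest falls were those of Rag1 (13.55-fold, limma adjusted p = 1.49e-16) and Vpreb3 (6.35-fold, 4.84e-20). Vpreb1, Ebf1, Igll1, Pax5, Cd22 and Cd79b fell by 1.965- to 2.903-fold. Summed over the 11, the range was 29376 to 31345 in TFEB-ERT2 cells in 4-OHT, 54224 to 56436 in TFEB-ERT2 cells in vehicle, 53640 to 59990 in vector cells in 4-OHT, and 52210 to 57456 in vector cells in vehicle. Of 5 plasma cell markers 4 were tested and 1 rose, Xbp1, a factor of secretory cells, with 10636, 11058 and 10686 in TFEB-ERT2 cells in 4-OHT, against 4036, 3341 and 3811 in vehicle (log2 change 1.54 ± 0.09, limma adjusted p = 1.29e-14). Summed over the 5, the range was 17943 to 19108 in TFEB-ERT2 cells in 4-OHT, 10638 to 11241 in TFEB-ERT2 cells in vehicle, 10064 to 11339 in vector cells in 4-OHT, and 10926 to 11200 in vector cells in vehicle. Xbp1 and Irf4 make up most of this sum, and Irf4 was not called (log2 change 0.09 ± 0.08, limma adjusted p = 0.463). Prdm1 and Igj were not called either (limma adjusted p of 0.126 and 0.172). Without drug, Xbp1 was already higher in TFEB-ERT2 than in vector cells (log2 difference 0.63 ± 0.09, limma adjusted p = 1.61e-05). In bulk RNA, fewer cells of a type and less RNA per cell cannot be told apart, and the part of these marker shifts in the results below was not tested.

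In TFEB-ERT2 cells, 4-OHT raised 16 of the 36 lysosomal membrane genes and lowered 2, and the other 18 did not pass the test. Among all 13111 tested genes, 13.7% were called higher and 13.9% lower in that comparison. The counts by role given below are small and are to be read against these shares. Calls are adjusted p-values under 0.05 from limma, with Benjamini-Hochberg adjustment over all tested genes, and changes are given on the log2(normalized count + 1) scale with their standard error (SE). The median change of the 36 genes was 0.56, against 0.04 for all tested genes, and 27 of the 36 changes were above 0. The rises of Slc15a3, Abcd4, Laptm5, Cd68, Clcn7, Mfsd12, Lamp2, Clcn5 and Ctns reached 2-fold, as did the fall of Clcn3. How many of all tested genes reached 2-fold was not counted. For all 16 raised genes the 3 4-OHT libraries of the TFEB-ERT2 line lay above its 3 vehicle libraries, and for 15 of the 16 they lay above all 9 other libraries. That separation was found for 72.9% of the 1792 tested genes called higher and, whatever the call, for 19 of the 36 genes and 12.5% of all tested genes. Within the TFEB-ERT2 line alone, groups that do not overlap in this direction were found for 20 of the 36 genes, against 19.6% of all tested genes. Among the 16, Slc15a4 was the one with a value of another group in its range, with 1 vector library between its TFEB-ERT2 values in 4-OHT. In each group, the library with the most genes with a read had 15342 to 19250 of them. Without these 4 libraries, in a fit with 2 libraries per group, 14 of the 18 genes were called. Cd68, Mfsd12, Ctns and Slc17a5 were not (limma adjusted p of 0.0678, 0.0562, 0.163 and 0.153). Their log2 changes were then 1.34, 1.03, 1.01 and 0.72, against 1.33, 1.12, 1.07 and 0.75 with all libraries.

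**Figure D1:**
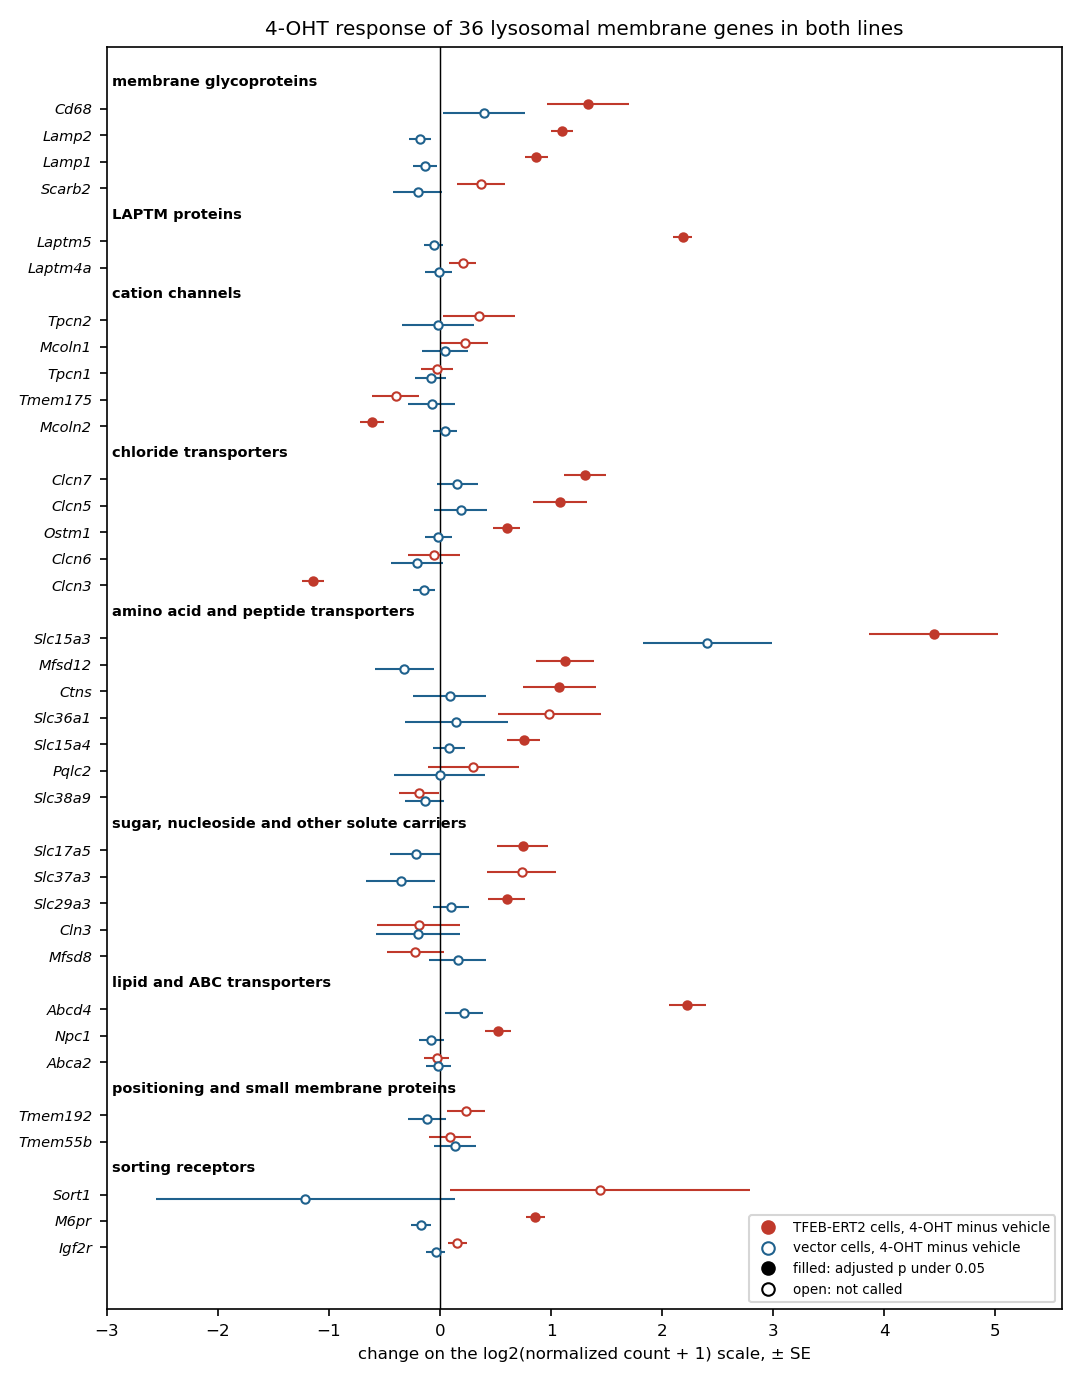
Change between 4-OHT and vehicle (x axis, log2 of normalized count + 1, point and bar are estimate ± SE from limma, 3 libraries per group) for the 36 genes, grouped by role, in TFEB-ERT2 cells (red, upper point of each gene) and vector cells (blue, lower point). Filled points passed the test: 18 do in TFEB-ERT2 cells and 0 in vector cells, and the 2 filled points left of 0 are Clcn3 and Mcoln2.

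Of the 4 membrane glycoproteins that passed the filter, 3 rose and 1 was not called. Lamp1 (GRCm38 chr8:13159161-13175338) and Lamp2 (chrX:38401357-38456454) encode the abundant glycoproteins of the lysosomal limiting membrane. Lamp2 had 3171, 3311 and 3025 normalized counts in TFEB-ERT2 cells in 4-OHT, against 1445, 1573 and 1421 in the same line in vehicle. It had 1363, 1281 and 1299 in vector cells in 4-OHT, against 1337, 1438 and 1719 in vector cells in vehicle. The 3 TFEB-ERT2 4-OHT libraries stood apart from the other 9, and the rise was 2.14-fold (log2 change 1.10 ± 0.10, limma adjusted p = 1.26e-10). Lamp1 had 2298, 2096 and 2027 normalized counts in TFEB-ERT2 cells in 4-OHT, against 1234, 1355 and 959 in vehicle. In vector cells it had 1484, 1456 and 1447 in 4-OHT, against 1545, 1682 and 1589 in vehicle. Its rise was smaller, 1.82-fold (log2 change 0.87 ± 0.11, limma adjusted p = 9.63e-08), and its TFEB-ERT2 vehicle level was the lowest of the 4 group means.

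Cd68 encodes a sialomucin of late endosomes and lysosomes that is best known from macrophages. It had 195, 247 and 195 normalized counts in TFEB-ERT2 cells in 4-OHT, against 97.7, 104 and 56.7 in vehicle, and 85.9, 55.8 and 70.2 in vector cells in 4-OHT, against 64.9, 55.9 and 40.1 in vehicle. The rise was 2.52-fold (log2 change 1.33 ± 0.37, limma adjusted p = 0.00574), and the groups of the TFEB-ERT2 line did not overlap. Of 14 macrophage and monocyte markers, 5 passed the filter, 0 rose and 1 fell in this comparison. The one that fell was Mrc1, the mannose receptor, with 37.7, 42.6 and 23.3 normalized counts in TFEB-ERT2 cells in 4-OHT, against 165, 140 and 131 in vehicle (log2 change -2.08 ± 0.36, limma adjusted p = 3.07e-05). The summed level of the 14, of which Mrc1 makes up most in vehicle, was 97.9 to 253 normalized counts in TFEB-ERT2 cells in 4-OHT, 169 to 242 in TFEB-ERT2 cells in vehicle, 132 to 241 in vector cells in 4-OHT, and 116 to 129 in vector cells in vehicle. Lyz2, the lysozyme of macrophages, was at 0 in 2 of 3 libraries of each group and at most 6.00. Csf1r, the receptor for macrophage colony-stimulating factor, had 37.7, 25.8 and 24.3 in TFEB-ERT2 cells in 4-OHT, against 16.3, 0 and 20.7 in vehicle (limma adjusted p = 0.31). In vector cells Csf1r had 0, 8.30 and 0 in 4-OHT, against 8.11, 3.93 and 0 in vehicle. Between the lines in 4-OHT, Csf1r was called higher in TFEB-ERT2 cells (log2 difference 3.82 ± 1.37, limma adjusted p = 0.0354) and Mrc1 lower (-1.73 ± 0.36, 0.000328). The tested markers Emr1, Itgam and Fcgr1 were not called there. The part of such cells in the Cd68 rise was not tested. Scarb2, which carries glucocerebrosidase to the lysosome, had 397, 457 and 465 normalized counts in TFEB-ERT2 cells in 4-OHT, against 288, 344 and 394 in vehicle. These ranges did not overlap, but the change did not pass the test (log2 change 0.37 ± 0.22, limma adjusted p = 0.237). Cd63, a tetraspanin of late endosomes, reached 10 normalized counts in only 2 libraries (27.1 and 12.4) and was not tested.

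Laptm5, a lysosomal membrane protein of blood cells that is known to send antigen receptors of lymphocytes to degradation, was the most abundant of the 36 genes per length of exon. It had 11769, 10372 and 11530 normalized counts in TFEB-ERT2 cells in 4-OHT, against 2629, 2388 and 2373 in vehicle. In vector cells it had 2377, 2092 and 2353 in 4-OHT, against 2226, 2410 and 2450 in vehicle. The other 9 libraries thus lay close together, and the rise was 4.55-fold with the smallest SE among the called genes (log2 change 2.19 ± 0.08, limma adjusted p = 5.4e-19). Laptm4a, of the same family and found in most cell types, was not called (log2 change 0.21 ± 0.12, limma adjusted p = 0.234). Laptm4b had reads in 3 libraries, reached 10 normalized counts in 1 of them and was not tested.

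Promoter windows of 250 bases before to 50 bases after an annotated start (RefSeq, GRCm38.p6) were given for 32 of the 39 listed genes, 2 of them under newer symbols. These were searched for the E-box CACGTG and for the longer TCACGTGA, the core of the CLEAR element. Each motif reads the same on both strands, and every longer match contains an E-box. The first 2 windows shown are those of Lamp1 (chr8:13158911-13159210, + strand), which holds the most E-boxes of the 30 genes that passed the filter and have a window, and Laptm5 (chr4:130913066-130913365, + strand), the largest riser with a window. Capitals mark the motif, with the outer letters also in capitals where the longer form is present.
Lamp1: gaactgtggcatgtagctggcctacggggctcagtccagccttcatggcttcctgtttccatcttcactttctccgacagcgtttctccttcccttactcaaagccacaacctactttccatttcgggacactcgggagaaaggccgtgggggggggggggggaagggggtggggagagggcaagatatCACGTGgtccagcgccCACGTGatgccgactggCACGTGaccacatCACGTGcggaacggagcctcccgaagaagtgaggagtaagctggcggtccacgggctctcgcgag
Laptm5: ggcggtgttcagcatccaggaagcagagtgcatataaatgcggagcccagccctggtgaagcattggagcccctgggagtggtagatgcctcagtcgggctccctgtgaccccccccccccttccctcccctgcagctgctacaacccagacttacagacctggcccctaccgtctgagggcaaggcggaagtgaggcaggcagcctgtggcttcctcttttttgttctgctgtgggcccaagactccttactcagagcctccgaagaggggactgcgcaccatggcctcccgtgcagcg
Lamp1 has 4 E-boxes, starting 61, 45, 28 and 15 bases before the annotated start, and none in the longer form, while these letters do not occur in the Laptm5 window.

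Among the chloride transporters, 3 of 5 rose, 1 fell and 1 was not called. Clcn7 encodes the chloride-proton exchanger of lysosomes, and Ostm1 its accessory subunit. Clcn7 (chr17:25133391-25162104) had 570, 603 and 547 normalized counts in TFEB-ERT2 cells in 4-OHT, against 254, 272 and 178 in vehicle. It had 305, 329 and 303 in vector cells in 4-OHT, against 321, 287 and 238 in vehicle. The 3 TFEB-ERT2 4-OHT libraries were above all others, with a rise of 2.47-fold (log2 change 1.31 ± 0.19, limma adjusted p = 1.51e-06). Ostm1 had 945, 928 and 887 normalized counts in TFEB-ERT2 cells in 4-OHT, against 557, 672 and 593 in vehicle. Both partners therefore rose, Ostm1 by 1.52-fold (log2 change 0.60 ± 0.12, limma adjusted p = 0.0003). Clcn5, an exchanger of endosomes, had 637, 599 and 486 normalized counts in TFEB-ERT2 cells in 4-OHT, against 311, 360 and 174 in vehicle, and 246, 154 and 256 in vector cells in 4-OHT, against 223, 183 and 161 in vehicle. It rose 2.12-fold (log2 change 1.08 ± 0.24, limma adjusted p = 0.000757).

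Clcn3 (chr8:60910389-60983300), an exchanger of endosomes and lysosomes related to Clcn5, went the other way. It had 2101, 1601 and 1792 normalized counts in TFEB-ERT2 cells in 4-OHT, against 3762, 4547 and 3811 in vehicle. In vector cells it had 2706, 2790 and 2331 in 4-OHT, against 2833, 2986 and 2800 in vehicle. The vector libraries lay between the groups of the TFEB-ERT2 line, and the fall was 2.21-fold (log2 change -1.14 ± 0.10, limma adjusted p = 8.34e-11). Clcn6, an exchanger of late endosomes, was not called (log2 change -0.05 ± 0.23, limma adjusted p = 0.923).

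The windows of Clcn7 (chr17:25133141-25133440, + strand) and Clcn3 (chr8:60983262-60983561, - strand, the first of 2 windows) show the largest riser with a longer element beside the largest faller.
Clcn7: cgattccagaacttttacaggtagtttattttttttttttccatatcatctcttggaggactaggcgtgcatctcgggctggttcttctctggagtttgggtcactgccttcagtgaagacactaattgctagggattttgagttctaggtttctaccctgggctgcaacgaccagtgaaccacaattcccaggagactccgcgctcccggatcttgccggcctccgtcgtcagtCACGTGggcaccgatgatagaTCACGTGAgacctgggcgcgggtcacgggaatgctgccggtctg
Clcn3: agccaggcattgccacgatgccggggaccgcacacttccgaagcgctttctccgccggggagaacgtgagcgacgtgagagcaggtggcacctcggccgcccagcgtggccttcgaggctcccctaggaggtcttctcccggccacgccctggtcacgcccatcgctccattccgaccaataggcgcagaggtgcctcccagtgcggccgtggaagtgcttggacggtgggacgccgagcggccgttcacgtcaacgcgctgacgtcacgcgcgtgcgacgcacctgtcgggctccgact
Clcn7 has an E-box starting 15 bases before the annotated start and a longer element whose E-box starts 7 bases after it, and neither Clcn3 window holds either motif.

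**Figure D2:**
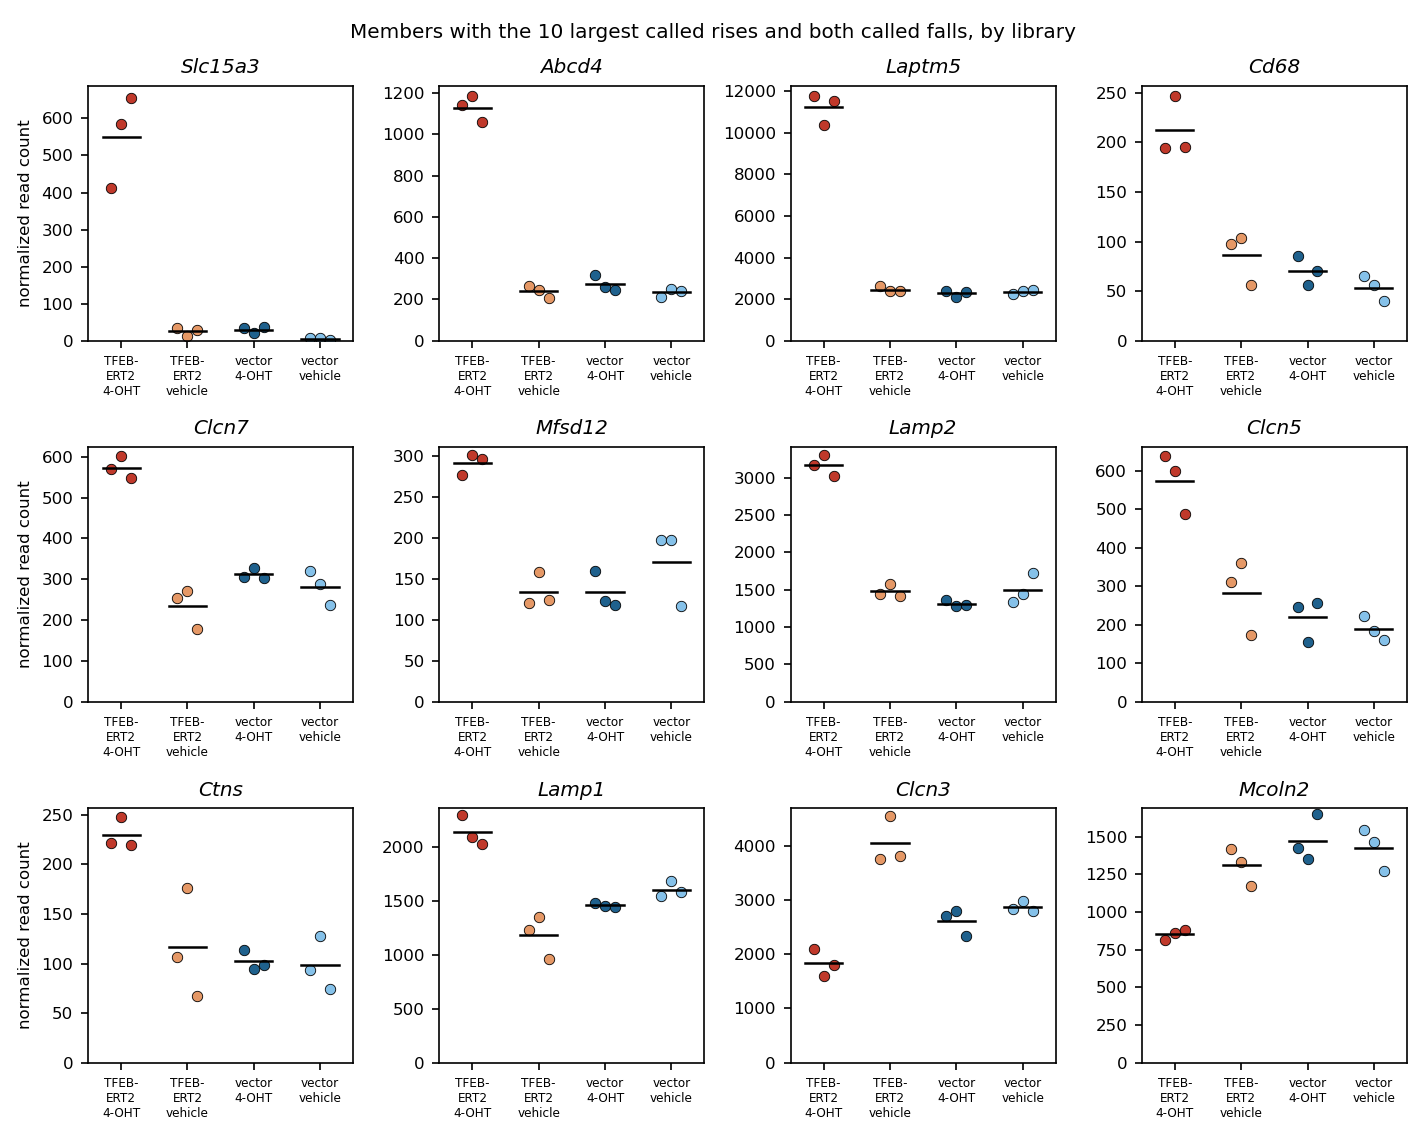
Normalized read counts (y axis, linear from 0) in every library for the 10 genes with the largest called rises in TFEB-ERT2 cells and the 2 with called falls. Points are libraries and lines are group means (n = 3), and for the 10 raised genes every TFEB-ERT2 4-OHT point lies above the other 9 points, whereas for Clcn3 and Mcoln2 every such point lies below them.

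None of the 5 cation channels rose, 1 fell and 4 were not called, where 13.7% of all tested genes were called higher and 13.9% lower. Mcoln1 encodes the mucolipin calcium channel of lysosomes that is known to help activate TFEB through calcineurin, and is a TFEB target in other cells. It had 280, 311 and 354 normalized counts in TFEB-ERT2 cells in 4-OHT, against 219, 333 and 265 in vehicle, and these ranges overlapped (log2 change 0.22 ± 0.21, limma adjusted p = 0.51). Mcoln2, a second mucolipin that is found in lymphocytes, had 818, 862 and 882 in TFEB-ERT2 cells in 4-OHT, against 1418, 1335 and 1176 in vehicle. It had 1423, 1351 and 1650 in vector cells in 4-OHT, against 1542, 1462 and 1272 in vehicle. All 3 TFEB-ERT2 4-OHT libraries were below the other 9, a fall of 1.53-fold (log2 change -0.61 ± 0.11, limma adjusted p = 4.19e-05). The endolysosomal TPC channels Tpcn1 (log2 change -0.02 ± 0.14) and Tpcn2 (0.35 ± 0.33) and the potassium channel Tmem175 (-0.40 ± 0.22) were not called, with limma adjusted p of 0.95, 0.505 and 0.186.

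Of the 7 amino acid and peptide transporters, 4 rose and 3 were not called. Slc15a3 and Slc15a4 encode proton-coupled transporters of histidine and short peptides, which in immune cells are known to act in signalling from endosomal receptors. Slc15a3 had 411, 586 and 655 normalized counts in TFEB-ERT2 cells in 4-OHT, against 33.4, 13.9 and 29.0 in vehicle. It had 33.3, 20.2 and 36.4 in vector cells in 4-OHT, against 8.11, 6.30 and 1.74 in vehicle, so it was also at its lowest in the vector line without drug. These vector vehicle values rest on 11, 8 and 2 reads, and 1.74 is below the floor of its library (2.61). The rise in TFEB-ERT2 cells was 21.8-fold, the largest of the 36 (log2 change 4.44 ± 0.58, limma adjusted p = 3.24e-07). Slc15a3 passed the filter in 9 libraries, 2 more than Sort1, the gene nearest to the limit.

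Slc15a4 had 678, 718 and 720 normalized counts in TFEB-ERT2 cells in 4-OHT, against 429, 492 and 346 in vehicle, and 545, 577 and 681 in vector cells in 4-OHT, against 529, 647 and 529 in vehicle. It rose 1.69-fold in the TFEB-ERT2 line (log2 change 0.75 ± 0.15, limma adjusted p = 0.000164), where its vehicle level was the lowest of the 4 groups. Mfsd12, which is needed to bring cysteine into lysosomes, had 278, 302 and 297 in TFEB-ERT2 cells in 4-OHT, against 121, 158 and 124 in vehicle, and 160, 123 and 118 in vector cells in 4-OHT, against 198, 198 and 117 in vehicle. Ctns, which exports cystine, had 222, 248 and 219 in TFEB-ERT2 cells in 4-OHT, against 106, 176 and 67.7 in vehicle, and 114, 94.9 and 98.9 in vector cells in 4-OHT, against 93.7, 128 and 74.0 in vehicle. Both genes of the cystine and cysteine pair rose, Mfsd12 by 2.18-fold (log2 change 1.12 ± 0.26, limma adjusted p = 0.00127) and Ctns by 2.11-fold (1.07 ± 0.33, limma adjusted p = 0.0129). The Ctns call rested on single libraries: its limma adjusted p was 0.0537 without TFEB-ERT2 4-OHT replicate 2 and 0.1 without TFEB-ERT2 vehicle replicate 3, the lowest of that group.

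Slc36a1, an exporter of small neutral amino acids, had 74.3, 110 and 77.6 normalized counts in TFEB-ERT2 cells in 4-OHT, against 50.6, 41.6 and 37.3 in vehicle. The ranges did not overlap and the change was close in size to that of Ctns, but its SE was wider (log2 change 0.99 ± 0.47, limma adjusted p = 0.124). Slc38a9, the arginine transporter that signals amino acid supply to mTORC1, was not called (-0.19 ± 0.18, limma adjusted p = 0.52), nor was Pqlc2, which exports cationic amino acids (0.30 ± 0.41, limma adjusted p = 0.689).

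Of 5 carriers of sugars, nucleosides and other solutes, 2 rose and 3 were not called. Slc17a5, the sialic acid exporter, had 683, 466 and 423 normalized counts in TFEB-ERT2 cells in 4-OHT, against 269, 368 and 288 in vehicle, and 137, 242 and 260 in vector cells in 4-OHT, against 263, 263 and 196 in vehicle. The rise of 1.68-fold (log2 change 0.75 ± 0.23, limma adjusted p = 0.0138) had an adjusted p of 0.137 without TFEB-ERT2 4-OHT replicate 1, its highest library, and of 0.0645 without TFEB-ERT2 vehicle replicate 1. Slc29a3, a nucleoside transporter, had 681, 625 and 528 in TFEB-ERT2 cells in 4-OHT, against 450, 418 and 341 in vehicle, and rose 1.52-fold (log2 change 0.60 ± 0.16, limma adjusted p = 0.00555). Slc37a3, of the sugar phosphate carrier family, had 186, 142 and 149 in TFEB-ERT2 cells in 4-OHT, against 81.4, 117 and 88.5 in vehicle (log2 change 0.74 ± 0.31, limma adjusted p = 0.0791), and the ranges did not overlap. Cln3 and Mfsd8, both mutated in forms of neuronal ceroid lipofuscinosis, were not called (log2 changes -0.19 ± 0.38 and -0.22 ± 0.26, limma adjusted p of 0.799 and 0.622).

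Of the 3 lipid and ABC transporters that passed, 2 rose. Abcd4, which exports cobalamin (vitamin B12) from lysosomes together with Lmbrd1, had 1143, 1185 and 1060 normalized counts in TFEB-ERT2 cells in 4-OHT, against 267, 248 and 209 in vehicle. It had 319, 262 and 244 in vector cells in 4-OHT, against 213, 252 and 242 in vehicle. The TFEB-ERT2 4-OHT libraries stood far above the other 9, a rise of 4.69-fold (log2 change 2.23 ± 0.17, limma adjusted p = 4.7e-12). Lmbrd1, no member of the set and singled out after its values were seen, was not called (0.14 ± 0.13, limma adjusted p = 0.502). Npc1, the exporter of cholesterol, had 1357, 1452 and 1392 in TFEB-ERT2 cells in 4-OHT, against 947, 1131 and 863 in vehicle, a rise of 1.44-fold (log2 change 0.52 ± 0.11, limma adjusted p = 0.000562). Abca2, a lipid transporter, was not called (-0.03 ± 0.11, limma adjusted p = 0.915), and the peptide transporter Abcb9 reached 10 normalized counts in only 2 libraries (13.8 and 21.4) and was not tested.

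Neither of the 2 other membrane proteins was called: Tmem55b, which links lysosomes to dynein through an adaptor, changed by 0.09 ± 0.19 and Tmem192, a membrane protein widely used as a handle to purify lysosomes, by 0.23 ± 0.17 (limma adjusted p of 0.808 and 0.356). Of the 3 sorting receptors, 1 rose. M6pr, the smaller of the mannose 6-phosphate receptors, had 2876, 3161 and 2890 normalized counts in TFEB-ERT2 cells in 4-OHT, against 1562, 1666 and 1689 in vehicle, and 1579, 1610 and 1621 in vector cells in 4-OHT, against 1687, 1869 and 1855 in vehicle. All 9 other libraries lay within a narrow range, and the rise was 1.81-fold (log2 change 0.86 ± 0.09, limma adjusted p = 2.81e-09). Igf2r, the larger receptor of the same ligand, had 3123, 3008 and 2843 in TFEB-ERT2 cells in 4-OHT, against 2847, 2798 and 2415 in vehicle, and these ranges overlapped by 1 library (log2 change 0.16 ± 0.09, limma adjusted p = 0.192). Sort1, a sorting receptor that does not use mannose 6-phosphate, was low, with 14.0, 36.1 and 17.5 in TFEB-ERT2 cells in 4-OHT, against 18.9, 0 and 24.9 in vehicle, and had the widest SE of the 36 (log2 change 1.44 ± 1.35, limma adjusted p = 0.51).

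The Igf2r window (chr17:12769657-12769956, - strand) is shown as the one with 2 longer elements; it was chosen after its values were seen.
Igf2r: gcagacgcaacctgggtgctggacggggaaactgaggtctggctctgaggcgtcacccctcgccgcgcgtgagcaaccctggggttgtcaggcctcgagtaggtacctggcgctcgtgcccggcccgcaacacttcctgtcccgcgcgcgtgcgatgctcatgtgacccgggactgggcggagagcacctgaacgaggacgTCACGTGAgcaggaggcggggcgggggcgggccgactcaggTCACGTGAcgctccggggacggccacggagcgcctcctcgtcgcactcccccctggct
Its longer elements hold E-boxes that start 48 and 7 bases before the annotated start. For Igf2r and Clcn3 the bases just after the RefSeq start were not found in a GENCODE M21 transcript of the gene. They were found for Clcn7, Lamp1 and Laptm5. Positions in the Igf2r window thus hold for the RefSeq start only. Of the 30 genes with a window that passed the filter, 10 held an E-box and 8 the longer element, 33.3% and 26.7%. The shares were 11.5% and 2.20% of 9587 tested genes with a window, and 8.09% and 1.12% of all 27025 genes with a window. Within the set, the longer element was in 1 of 12 raised genes (Clcn7), in neither of the 2 lowered genes and in 7 of 16 not called (Mcoln1, Clcn6, Slc36a1, Slc37a3, Cln3, Tmem55b and Igf2r). Of these 7, Slc37a3, Slc36a1 and Mcoln1 were called higher in some alternative fits. Their lowest adjusted p was 0.0164 (DESeq2), 0.0339 (limma without the variance trend) and 0.0425 (limma with array weights). Over all tested genes with a window it was in 4.23% of 1371 that rose, 1.64% of 1345 that fell and 1.91% of 6871 not called. A match is a match of letters, and 7 listed genes, among them the raised Slc15a3, Abcd4, M6pr and Npc1, have no window here.

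**Figure D3:**
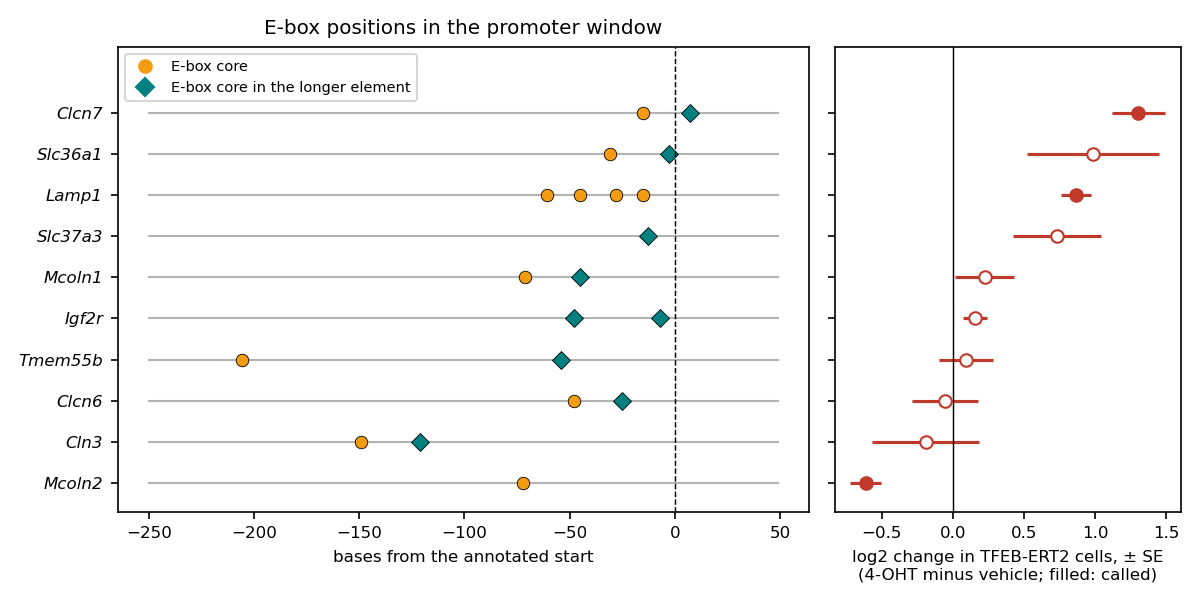
Left, position of each E-box (x axis, bases from the annotated start at 0, grey line is the window) in the 10 genes that hold one, with diamonds where it lies in the longer element. Right, log2 change of the same genes in TFEB-ERT2 cells (4-OHT minus vehicle, ± SE, filled where called by the main limma fit). Of the 8 genes with a diamond, only Clcn7 was called by that fit.

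Per length, the order of levels also differed between the groups. As normalized counts per kilobase of exon (mean ± SD, n = 3), the highest levels in TFEB-ERT2 cells in 4-OHT were those of Laptm5 (2963 ± 197), Lamp1 (800 ± 52.6), M6pr (714 ± 38.5), Laptm4a (593 ± 28.6) and Lamp2 (332 ± 15.0). In TFEB-ERT2 cells in vehicle they were those of Laptm5 (650 ± 37.9), Laptm4a (514 ± 30.0), Lamp1 (442 ± 75.8), Mcoln2 (398 ± 37.4) and M6pr (393 ± 16.2). The library ranges of the neighbours Lamp1 and M6pr in 4-OHT touched, and so did those of each pair of neighbours from Laptm4a to M6pr in vehicle, so these orders are not fixed by the data. Sort1 was the lowest in both groups (2.98 ± 1.57 in 4-OHT and 1.93 ± 1.72 in vehicle).

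In vector cells 4-OHT changed 0 of the 36 genes by limma, where 0.0153% of all tested genes were called, and 1 of the 36 had an unadjusted p under 0.05, against 6.27% of all tested genes. The median change was -0.03, against 0.03 for all tested genes. That gene was Slc15a3 (log2 change 2.41 ± 0.58, limma adjusted p = 0.155), whose vector 4-OHT libraries were all above the vehicle ones. With the same design fitted to whole reads, edgeR's quasi-likelihood test called 0 of the 36 and DESeq2 called 1, which was Slc15a3 (adjusted p = 0.000237). Over all tested genes, edgeR called 0 and DESeq2 called 48 of the 12850 to which it gave an adjusted p. Each had 3 of the 36 genes at an unadjusted p under 0.05, against 1009 (edgeR) and 1241 (DESeq2) of all 13111 tested genes.

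**Figure D4:**
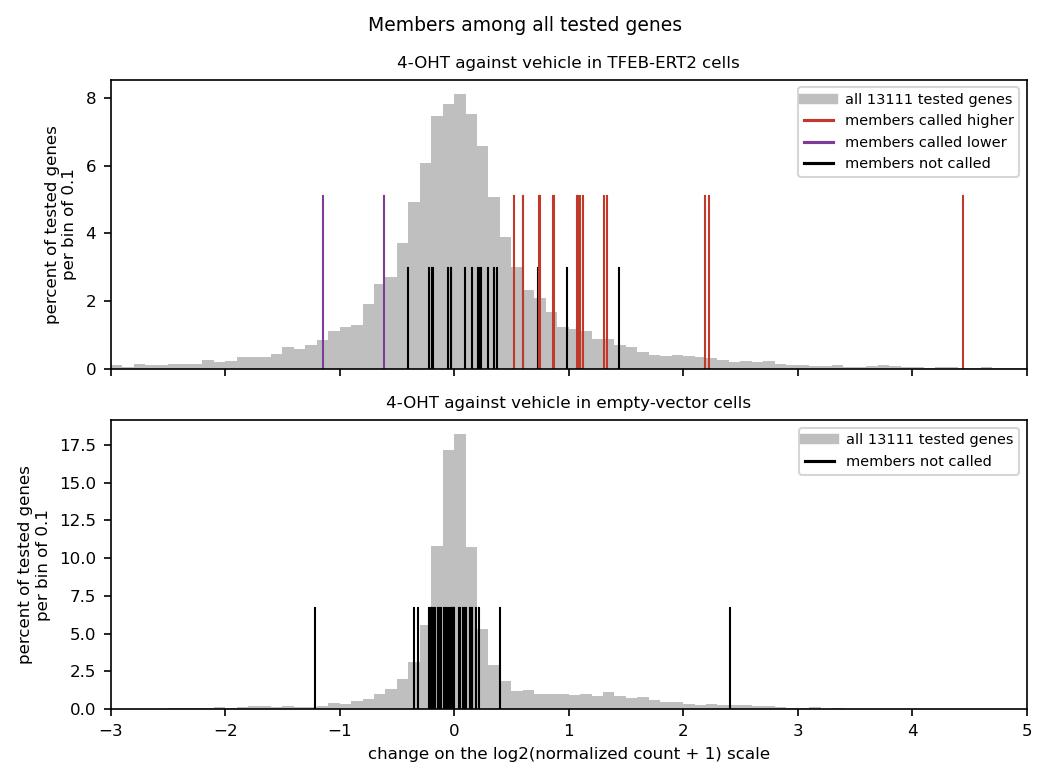
Distribution of the change between 4-OHT and vehicle over all 13111 tested genes (grey, percent of genes per bin of 0.1, x axis log2 of normalized count + 1, drawn from -3 to 5), with a vertical line for each of the 36 genes, coloured by its call. In TFEB-ERT2 cells (top) most called lines lie right of 0 and Slc15a3 is farthest out, whereas in vector cells (bottom) most lines crowd near 0 and none is called.

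The test of the difference between the 4-OHT responses of the lines called 13 of the 36 genes, 11 with a more positive response in TFEB-ERT2 cells and 2 with a more negative one, where 7.75% and 8.01% of all tested genes were called in those directions. All 13 were also called in TFEB-ERT2 cells, a comparison whose libraries this test contains. The largest positive differences were those of Laptm5 (2.24 ± 0.12, limma adjusted p = 4.29e-15), Abcd4 (2.01 ± 0.24, 1.46e-07), Mfsd12 (1.44 ± 0.37, 0.00563), Lamp2 (1.28 ± 0.14, 1.83e-08) and Clcn7 (1.15 ± 0.26, 0.00193). The others were M6pr (1.03 ± 0.12, 1.74e-07), Lamp1 (1.00 ± 0.15, 7.63e-06), Slc17a5 (0.96 ± 0.33, 0.0404), Slc15a4 (0.67 ± 0.21, 0.0231), Ostm1 (0.62 ± 0.17, 0.0125) and Npc1 (0.60 ± 0.16, 0.0074). The negative ones were Clcn3 (-1.002 ± 0.14, 2.47e-06) and Mcoln2 (-0.66 ± 0.15, 0.00211). For Slc15a3, Cd68, Clcn5, Ctns and Slc29a3, which rose in TFEB-ERT2 cells, the difference itself was not called (limma adjusted p of 0.0955, 0.268, 0.0738, 0.171 and 0.166). For Slc15a3 this depended on the method, since the adjusted p was 0.0187 with edgeR and 0.00259 with DESeq2, and on 1 library, since it was 0.019 without vector vehicle replicate 3. With 10 in place of 1 added to the counts, the limma adjusted p for Slc15a3 was 0.000524, and with array weights it was 0.0393.

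Without drug, the TFEB-ERT2 line differed from the vector line in 3 of the 36 genes, 2 higher and 1 lower, where 2.89% and 2.49% of all tested genes were called in those directions. Clcn3 was higher in TFEB-ERT2 cells (log2 difference 0.49 ± 0.10, limma adjusted p = 0.00191), as was Slc15a3 (2.13 ± 0.58, 0.0243), and Lamp1 was lower (-0.45 ± 0.11, 0.00704). For Clcn3 and Lamp1 this difference is opposite in sign to their change in 4-OHT in the same line. The values share the TFEB-ERT2 vehicle libraries, which enter both with opposite signs. Clcn3 was also lower in TFEB-ERT2 than in vector cells in 4-OHT (-0.52 ± 0.10, limma adjusted p = 0.00013), and Lamp1 higher (0.55 ± 0.11, 0.000143), a comparison that does not use the vehicle libraries. The Clcn3 difference in vehicle had a limma adjusted p of 0.0949 without the variance trend. Without the library of each group in which the most genes had a read, it was 0.0509, and 0.0531 for the Clcn3 difference in 4-OHT. The Lamp1 difference in vehicle had an adjusted p of 0.0715 without TFEB-ERT2 vehicle replicate 3, its lowest library. That of Slc15a3 was above 0.05 without any 1 of TFEB-ERT2 4-OHT replicate 3, TFEB-ERT2 vehicle replicate 1 or 3, or vector vehicle replicate 3 (adjusted p of 0.0599, 0.0919, 0.0664 and 0.135). With 10 in place of 1 added to the counts, the Slc15a3 difference in vehicle was 1.18 (limma adjusted p = 0.0652).

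In 4-OHT, TFEB-ERT2 cells were higher than vector cells in 17 of the 36 genes and lower in 2, where 13.6% and 13.5% of all tested genes were called in those directions. The 2 lower genes were Clcn3 and Mcoln2 (log2 difference of Mcoln2 -0.78 ± 0.11, limma adjusted p = 8.67e-07). Called here but not between 4-OHT and vehicle in TFEB-ERT2 cells were Scarb2 (0.90 ± 0.22, limma adjusted p = 0.00173) and Igf2r (0.37 ± 0.09, 0.00129). Slc15a4 was not called here (0.24 ± 0.15, limma adjusted p = 0.271), and its groups overlapped. Whether the Scarb2 and Slc15a4 values differ between these comparisons was not tested.

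Beyond the 36 genes, 94 further genes of the lysosomal membrane, its traffic and its positioning were counted, of which 90 passed the filter. In TFEB-ERT2 cells 4-OHT raised 31 and lowered 8 of them, with a median change of 0.25 against 0.04 for all tested genes, and in vector cells it changed 0. Of all tested genes, 13.7% were called higher and 13.9% lower with 4-OHT in TFEB-ERT2 cells, against which the falls among the further genes, 8 of 90, and the class counts are to be read. By class, 13 of 40 further membrane proteins rose and 3 fell, 6 of 17 genes of BORC and lysosome positioning rose and 2 fell, and 5 of 11 genes of the fusion machinery rose and 1 fell. Of the 4 genes of the PI(3,5)P2 kinase complex and phosphatases 2 rose and 0 fell, and of 18 genes of the sorting machinery 5 rose and 2 fell.

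The largest rise was that of Gpnmb, a glycoprotein of lysosomes and melanosomes, with 261, 280 and 195 normalized counts in TFEB-ERT2 cells in 4-OHT, against 10.3, 0 and 5.53 in vehicle, and at most 4.75 in any vector library (limma adjusted p = 0.000257). Slc26a11, an anion transporter, had 150, 41.3 and 77.6 in TFEB-ERT2 cells in 4-OHT, against 8.57, 0 and 0 in vehicle (limma adjusted p = 8.84e-05). Vector cells had 10.1 to 16.6 of it in 4-OHT and 7.37 to 14.8 in vehicle, so its TFEB-ERT2 vehicle libraries included the lowest of the 12. P2rx4, an ATP-gated channel found on lysosomes, rose 7.81-fold, Atp13a2, a polyamine exporter, 3.40-fold, and Vamp8, a SNARE of lysosome fusion, 3.22-fold (limma adjusted p of 1.51e-10, 1.07e-13 and 2.42e-07). The largest falls were those of Gpr137b, a lysosomal membrane protein linked to mTORC1 (2.77-fold, limma adjusted p = 0.00229), Litaf (2.05-fold, 1.48e-07) and Rnf13 (1.62-fold, 5.06e-07), the last a ubiquitin ligase of endosomes and lysosomes. Singled out after their values were seen, the 3 genes that make the mannose 6-phosphate tag all rose beside M6pr: Gnptab 2.47-fold, Gnptg 2.41-fold and Nagpa 2.55-fold (limma adjusted p of 2.15e-13, 0.0267 and 5.25e-09).

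In GENCODE M21, 6 of the 18 called genes share exon bases with a gene on the other strand, and the sources used here do not give the strand setting of the counting. Lamp1 shares 249 bases with Grtp1, which had at most 7.71 normalized counts in any library, and Slc15a3 shares 1541 with Tmem132a, which had at most 19.0. Mfsd12 shares 1179 bases with 4930404N11Rik (11.6 to 33.6 in TFEB-ERT2 cells in 4-OHT, against 7.47 to 30.8 in vehicle). Npc1 shares 511 bases with Rmc1, listed in the data as 3110002H16Rik, which itself rose 1.40-fold (limma adjusted p = 0.00668). The partners of Ostm1 (410 bases) and Slc15a4 (427 bases) were not used here. M6pr has a processed pseudogene, M6pr-ps, which was not used here.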

How the data were processed

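The deposited table holds a signal per gene and library, never negative: read counts that the authors divided by 1 size factor per library, as the whole-number steps show. The submitters' processing notes name the build mm10 and the tools DESeq2 1.6.3, HTSeq 0.6.1 and STAR 2.5.3. What each tool did, the annotation and the strand setting: not given in the sources used here. Per the labels' protocols, total RNA went into a kit of the NuGEN Ovation mouse type. Dividing by the value of 1 read turned 100% of the values above 0 into whole numbers (within 0.001) in each library, so whole reads were recovered. Floors cover counting error only.

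Genes with at least 10 normalized counts in at least 3 libraries were analysed as log2 of the value plus 1 (the pseudocount), which can understate changes of low genes. A single limma 3.58.1 model (R 4.3.3) with a mean for each group, 8 residual degrees of freedom and a variance trend served all 12 libraries and 5 comparisons, with Benjamini-Hochberg adjustment over 13111 genes. The members, roles and gene lists were chosen with earlier results of these data known, so their counts are descriptions and no list was tested as a set. Values in every library are given for the 10 largest called rises and all called falls in TFEB-ERT2 cells, Lamp1 and Lamp2, the 5 largest differences each way between lines and the genes called in vehicle; of the further genes, the 5 largest rises and 3 largest falls are named, and other values shown were added for context. Promoters were printed for the largest riser with the longer element (Clcn7), the largest with E-boxes outside it only (Lamp1), the largest with a window (Laptm5), the largest faller (Clcn3), and Igf2r.

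Alternatives were edgeR 4.0.16 and DESeq2 1.42.0 on the whole reads, edgeR's TMM and upper-quartile scaling, pseudocounts of 0.5 and 10, no filter, a minimum of 50, no trend, array weights, only the groups compared, a replicate block, and leaving out libraries. The limma, edgeR and DESeq2 fits were tested on simulated data. Replicates differed beyond counting error (chi-square over its degrees of freedom 7.88 to 25.5, genes of 40 reads or more). Such a spread cannot tell separate cultures from repeated preparations of the same culture. Positions are from GENCODE M21 (GRCm38, which is mm10). One B lineage marker of the original list is not reported here.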

Additional observations from a re-analysis of the deposited data

Results flagged for a closer look

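For 13 of the 36 genes the 4-OHT response differed between the TFEB-ERT2 line and the vector line, by limma's test of the difference itself. On the log2 scale (TFEB-ERT2 response minus vector response) the difference was 2.24 for Laptm5, 2.01 for Abcd4, 1.44 for Mfsd12, 1.28 for Lamp2, 1.15 for Clcn7, 1.03 for M6pr, 1.00 for Lamp1, 0.96 for Slc17a5, 0.67 for Slc15a4, 0.62 for Ostm1 and 0.60 for Npc1. It was -1.002 for Clcn3 and -0.66 for Mcoln2. The lines also differ in Tfeb level in vehicle, and the part of that in these differences was not tested.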

How the results depend on the processing

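Of 36 genes, limma called 18 in TFEB-ERT2 cells, 0 in vector cells, 13 for the difference between lines, 3 between lines in vehicle and 19 between lines in 4-OHT. No call changed sign under any alternative. In TFEB-ERT2 cells 14 of 18 calls were kept in every alternative; Cd68, Mfsd12, Ctns and Slc17a5 were lost in at least 1. The same count was 7 of 13 for the difference between lines (lost at least once: Clcn7, Mfsd12, Npc1, Ostm1, Slc15a4 and Slc17a5), 0 of 3 in vehicle and 15 of 19 in 4-OHT. Calls were also gained: in TFEB-ERT2 cells Mcoln1, Scarb2, Slc36a1 and Slc37a3 were called higher in at least 1 alternative.

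Leaving out 1 library at a time gave 17 to 18 calls in TFEB-ERT2 cells, 11 to 15 for the difference between lines, 2 to 4 in vehicle and 19 to 20 in 4-OHT, and 0 in vector cells. DESeq2 called 1 gene in vector cells (Slc15a3). In vehicle the count was 0 without the variance trend, 5 with array weights and 1 with only the groups compared. Without the library of each group in which the most genes had a read, 14, 0, 7, 0 and 15 genes were called in the 5 comparisons, in a fit with 2 libraries per group; the Cd68 and Mfsd12 rises then had adjusted p of 0.0678 and 0.0562.

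Same-numbered libraries did not deviate together: the correlation of their deviations from the group means was -0.124 to 0.0959 over 18 pairs, and 0 of the 18 were above 0.1. No shared shift by number was thus seen. Whether same-numbered libraries were grown or prepared together cannot be told from these values. With the replicate block limma called 18, 0, 13, 3 and 19 genes. Precision differed widely between genes that were not called in TFEB-ERT2 cells, with SEs of 0.086 to 1.35 on the log2 scale, so a 2-fold change of Sort1 would not have been detectable.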
